A study of Mus musculus with 6 samples.

Results

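The regions described here are stretches of accessible chromatin, away from gene starts, that were already listed in mouse mammary epithelial cells given vehicle. Their listed width was at least 2 times as large after 12 h of TGFβ1. The peak intervals of at least 150 bp of each condition were merged where the gap between them was under 1000 bp, and the 3 resulting lists were merged in the same way into 39435 union regions. Of these, 15154 held a region of all 3 lists, and 6373 of those lay over 1000 bp from every annotated transcript 5′ end (shared distal regions). In 1416 shared distal regions the bp listed at 12 h came to at least 2 times the bp listed in vehicle, which is 22.2% of 6373. These 1416 are called widened regions. They were selected on their vehicle and 12 h widths, so those widths are given as a description. The remaining 4957 shared distal regions serve for comparison: 3875 had a 12 h width of 1 to under 2 times the vehicle width (steady regions) and 1082 were narrower at 12 h than in vehicle (narrowed regions). The same ratio was reached by 1457 of the 8781 shared regions within 1000 bp of a 5′ end (16.6%).

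ATAC-seq, in which the transposase Tn5 inserts sequencing adapters into open chromatin, was carried out on NMuMG cells, an epithelial line from normal mouse mammary gland. All cells were first kept 6 h without serum and, per the study's methods, without insulin. They were then given vehicle for 2 h or TGFβ1 (5 ng/ml) for either 2 or 12 h, with 2 biological replicates per condition and 6 samples in all. No vehicle sample was taken at 12 h, so 12 h of TGFβ1 and the longer time without serum and insulin cannot be told apart. Replicates were pooled into 1 list of peaks for each condition. No spread between replicates can therefore be given, and the lists hold no read counts. The intervals quoted below are 95% intervals over regions, cover counting error only, and treat regions as independent, which neighbouring regions are not.

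Distal accessible regions include enhancers, where transcription factors bind and act on genes at a distance. TGFβ signals through receptor kinases that phosphorylate SMAD2 and SMAD3, which enter the nucleus with SMAD4 and bind DNA weakly on their own, often beside partner factors. AP-1, a dimer of JUN and FOS family proteins, is a frequent partner, binds a short palindromic site and is itself induced by growth factors and by TGFβ. NMuMG cells are widely used to follow the epithelial to mesenchymal transition that TGFβ sets off.

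Vehicle sequence of 5 widened regions named below, 4 near genes of the lists described there and Myh9 for its gain in width, is shown to let the position of AP-1 matches (TGACTCA, or TGAGTCA on the other strand) be seen. The sixth sequence holds a palindromic SMAD match (GTCTAGAC) in place of an AP-1 match. Each is the stretch listed in vehicle, on the plus strand of NCBIM37 (mm9), with the match in capitals. The Smad3, Vcl and Tead1 regions lie in introns of those genes, the Myh9 region in an intron of Myh9, the Dusp1 region between genes, and the region near Gadd45b in an intron of Gng7.
Smad3, chr9:63525996-63526284: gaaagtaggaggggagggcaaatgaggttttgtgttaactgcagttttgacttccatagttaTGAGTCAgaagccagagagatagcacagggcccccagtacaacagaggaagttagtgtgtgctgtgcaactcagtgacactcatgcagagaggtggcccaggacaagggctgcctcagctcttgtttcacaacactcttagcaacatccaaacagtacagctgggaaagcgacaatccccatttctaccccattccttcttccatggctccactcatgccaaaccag
Tead1, chr7:119840601-119840892: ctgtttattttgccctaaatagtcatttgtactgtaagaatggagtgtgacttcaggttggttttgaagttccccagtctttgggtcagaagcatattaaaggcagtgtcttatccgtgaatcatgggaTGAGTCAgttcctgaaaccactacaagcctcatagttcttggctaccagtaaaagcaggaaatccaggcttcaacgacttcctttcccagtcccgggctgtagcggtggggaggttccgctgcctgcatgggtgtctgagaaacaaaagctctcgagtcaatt
Myh9, chr15:77631026-77631308: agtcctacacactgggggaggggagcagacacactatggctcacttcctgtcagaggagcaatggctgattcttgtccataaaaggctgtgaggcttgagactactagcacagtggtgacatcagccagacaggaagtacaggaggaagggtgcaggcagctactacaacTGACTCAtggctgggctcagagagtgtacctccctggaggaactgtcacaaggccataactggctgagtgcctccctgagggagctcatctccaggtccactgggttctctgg
Dusp1, chr17:26651703-26651961: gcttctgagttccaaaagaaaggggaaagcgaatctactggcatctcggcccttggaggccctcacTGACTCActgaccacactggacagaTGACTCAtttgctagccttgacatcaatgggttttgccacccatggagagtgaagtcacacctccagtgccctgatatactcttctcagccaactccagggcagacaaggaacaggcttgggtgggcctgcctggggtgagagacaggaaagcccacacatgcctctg
Vcl, chr14:21793083-21793342: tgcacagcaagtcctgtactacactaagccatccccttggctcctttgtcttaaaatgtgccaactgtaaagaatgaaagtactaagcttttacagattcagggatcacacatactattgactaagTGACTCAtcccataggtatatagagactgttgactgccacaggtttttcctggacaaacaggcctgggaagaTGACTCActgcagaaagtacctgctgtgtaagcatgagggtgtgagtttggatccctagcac
Gadd45b, chr10:80450885-80451121: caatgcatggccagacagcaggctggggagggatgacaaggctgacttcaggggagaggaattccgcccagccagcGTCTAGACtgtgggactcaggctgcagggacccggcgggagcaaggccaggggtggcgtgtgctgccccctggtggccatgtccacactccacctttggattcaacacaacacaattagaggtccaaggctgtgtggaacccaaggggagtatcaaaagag

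In 2 further widened regions the AP-1 match stood in sequence listed after TGFβ1 and not in vehicle, and 67 bp around it are shown. The Ctnnd1 match lay 1382 bp outside the vehicle region, and the Prr5l match shown, the farther of 2, lay 1156 bp outside it.
Ctnnd1, chr2:84474404-84474470: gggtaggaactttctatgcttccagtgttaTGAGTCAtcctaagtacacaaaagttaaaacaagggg
Prr5l, chr2:101666633-101666699: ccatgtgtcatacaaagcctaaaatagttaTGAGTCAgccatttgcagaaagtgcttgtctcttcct

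The widened regions were narrow in vehicle and wide in both TGFβ1 lists. Their median listed width was 315 bp in vehicle (95% interval from 304 to 321 bp), 775 bp after 2 h (751 to 806 bp) and 902.5 bp after 12 h (876 to 927 bp). The steady regions had medians of 470, 643 and 638 bp, and the narrowed regions of 613.5, 662.5 and 496 bp, in the same order. The groups therefore started in the opposite order to the one in which they ended. Since a low vehicle width makes a ratio of 2 easier to reach, this order follows in part from the selection. The 12 h to vehicle ratio had a median of 2.65 over the widened regions a 75th percentile of 3.51 and a maximum of 11.5. The regions just inside the threshold were those nearest to Herc6, with 183 bp in vehicle and 366 bp at 12 h, Mylk4, with 437 and 874 bp, and Ankrd55, with 200 and 400 bp. Just outside it were those nearest to Epcam, with 450 and 899 bp, Gm9897, with 259 and 517 bp, and Rassf6, with 442 and 882 bp. The vehicle list was also the smallest of the lists, with 16765 regions against 32548 at 2 h and 33079 at 12 h. The part of list size in the widths was not tested.

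**Figure D1:**
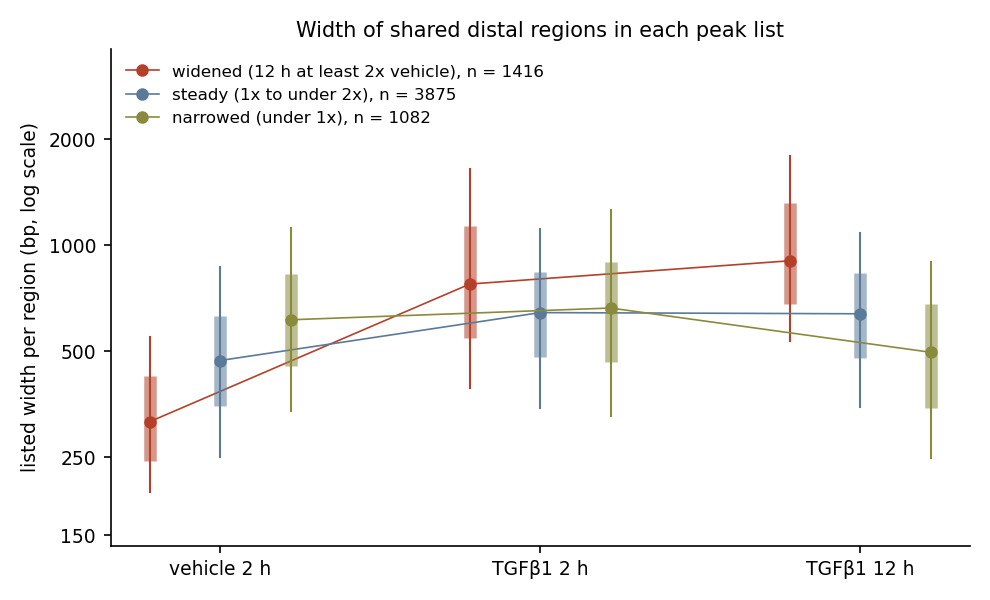
Listed width per shared distal region (bp, log scale) in the vehicle, TGFβ1 2 h and TGFβ1 12 h peak lists for widened, steady and narrowed regions; points are medians, thick bars run from the 25th to the 75th percentile and thin lines from the 10th to the 90th percentile over regions. The median of the 1416 widened regions went from 315 bp in vehicle to 775 bp after 2 h and 902.5 bp after 12 h.

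The share of regions that met the threshold fell with the vehicle width. Among shared distal regions of 150 to 288 bp in vehicle, 594 of 1275 were widened (46.6%). The share was 32.1% at 289 to 398 bp, 17.7% at 399 to 506 bp, 10.6% at 507 to 685 bp and 4.01% at 686 to 2645 bp. The widened regions are thus mostly small vehicle regions, and the comparisons of AP-1, TEAD, KLF and SP and CTCF matches and of the score were repeated with the other shared distal regions weighted to the vehicle widths of the widened regions over these 5 bins. FOX matches, position and neighbours were not compared in this way. The peak score in the vehicle list, which ranged from 540 to a ceiling of 1000, was at the ceiling in 25.8% of widened regions (23.6 to 28.1%) and in 42.0% of other shared distal regions (40.7 to 43.4%). With the vehicle widths weighted, the second share was 26.7%.

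**Figure D2:**
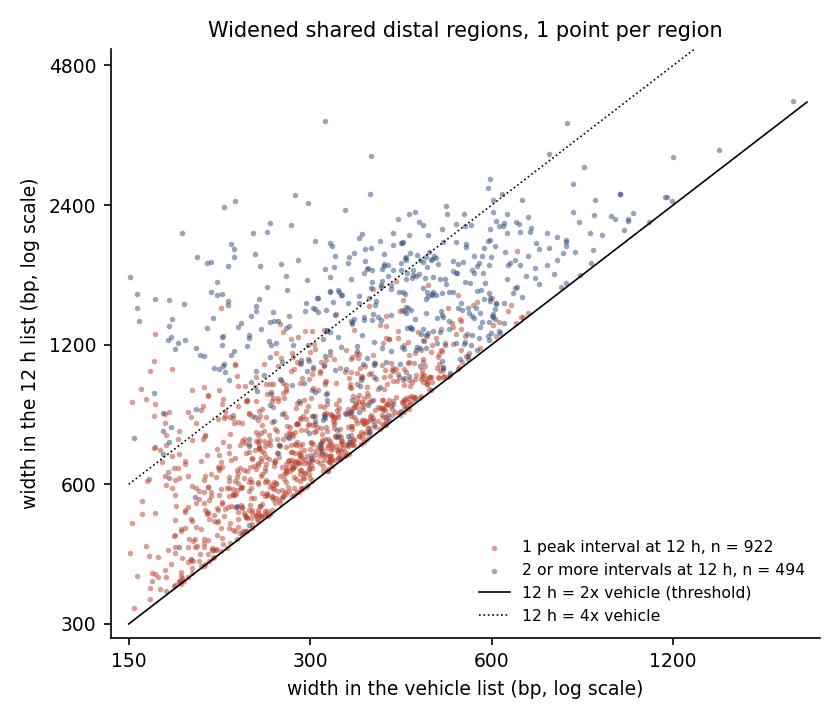
Width in the vehicle list against width in the 12 h list (bp, both axes log scale) for the 1416 widened regions, 1 point per region, coloured by whether the 12 h list held 1 peak interval there or 2 or more (494 regions). The solid line is the threshold of 2 times the vehicle width, below which no point can lie, and the dotted line marks 4 times.

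Widening was mostly present after 2 h. The 2 h width was at least 2 times the vehicle width in 973 of 1416 widened regions (68.7%, 66.3 to 71.1%), against 1340 of all 6373 shared distal regions (21.0%) and 328 of 3875 steady regions (8.46%). The 2 h ratio shares the vehicle width with the rule, so this difference is in part fixed by the selection. Only 173 of the 6373 shared distal regions (2.71%) were at least 2 times as wide at 12 h as at 2 h. The rule picks regions with a large 12 h width, so a further rise from 2 h to 12 h is also favoured by the selection. Over all 6373 shared distal regions, 40.6% rose in both steps and 49.9% were wider at 2 h than at 12 h. Within the widened regions, 941 (66.5%) rose in width from vehicle to 2 h and again to 12 h, 447 (31.6%) were wider at 2 h than at 12 h, and 20 (1.41%) were no wider at 2 h than in vehicle. The Ankrd55 region, chr13:113049517-113049916, was of this last kind, with 200 bp in vehicle, 193 bp after 2 h and 400 bp after 12 h. Of the bp in 12 h regions and not in vehicle regions, merged gaps included, 70.6% were also in 2 h regions. This share was much the same in steady (68.8%) and narrowed regions (68.1%), so it is not particular to the widened regions.

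The 443 regions that had not reached 2 times at 2 h had median widths of 330 bp in vehicle, 510 bp after 2 h and 814 bp after 12 h. The 973 that had reached it had medians of 304, 935 and 946 bp. The split is by the 2 h width, so these 2 h medians follow from it. An AP-1 match in the 500 bp around the vehicle centre was found in 57.1% of the early and 57.8% of the later group, a difference of -0.645 percentage points (-6.14 to 4.93).

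Most widened regions had some added sequence on both sides of the vehicle region, where any added bp counted. In 1254 of 1416 widened regions (88.6%, 86.8 to 90.1%) bp were added on both the lower and the higher coordinate side. Over all widened regions the medians were 210.5 and 225 bp, and the 10th percentile was 14 bp on each side. In steady regions the share with bp on both sides was 69.5%, but these had less to add. All vehicle bp stayed inside the 12 h regions in 1279 widened regions (90.3%), and in 12 (0.847%) the vehicle and 12 h regions did not overlap. More bp were added on the side of the nearest protein-coding 5′ end in 730 of 1414 regions with a longer side (51.6%, 49.0 to 54.2%), and in 50.2% of the steady regions. No side with respect to the gene was seen to be preferred.

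Widening took 2 forms. In 927 widened regions (65.5%) every 12 h interval overlapped a vehicle interval, so that the peak itself had spread, from a median of 285 bp in vehicle to 680 bp after 2 h and 753 bp after 12 h. The other 489 (34.5%) held at least 1 separate interval, a 12 h interval that overlapped no vehicle interval. It was joined to the same union region through gaps under 1000 bp, in some cases by way of other intervals, as at Ctnnd1. These 489 regions went from 403 bp in vehicle to 1248 bp after 2 h and 1474 bp after 12 h, gaps included. Their intervals that did overlap the vehicle peak were a median of 1.34 times as wide as in vehicle, and reached 2 times in 73 (14.9%). Most of the growth of the second form was thus new neighbouring peaks and the gaps between. There were 536 such separate intervals, with a median width of 384.5 bp and a median gap of 532.5 bp. Of these, 383 (71.5%, 67.5 to 75.1%) overlapped a 2 h interval, and 239 (44.6%, 40.4 to 48.8%) held an AP-1 match. In the 500 bp at the centre of the separate interval 44.8% held a match. This is near the 46.0% of all distal union regions with a match in the 500 bp at their centre.

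The largest gains in bp were of the second form. The largest was at Kdm6b, which encodes a demethylase of histone H3 lysine 27, where chr11:69222054-69225733 went from 317 bp in vehicle to 1814 bp after 2 h and 3635 bp after 12 h, the highest ratio of all (11.5). The region overlapped an untranslated exon. Its vehicle peak did not itself grow, and the gain came from 3 separate 12 h intervals. An intron of Ctnnd1, the gene of the adherens junction protein p120-catenin, held chr2:84473147-84476213, which went from 378 to 1890 and 3054 bp. The gene of the heavy chain of non-muscle myosin IIA, Myh9, held an intronic region, chr15:77628448-77631484, with 283, 1772 and 2521 bp. The Myh9 and Ctnnd1 vehicle peaks also spread, as the map of intervals shows.

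Other large gains were found at transcription and signalling genes. An intron of Runx1, a transcription factor gene, held chr16:92608216-92611352, at 747 bp in vehicle and 3090 bp at both times after TGFβ1. An intron of Prr5l, whose product binds the mTORC2 kinase complex, held chr2:101666547-101668993, with 225, 2443 and 2447 bp. The Nanos3 region, chr8:86724570-86728186, lay between genes 24119 bp from the nearest 5′ end and went from 801 to 1106 and 3606 bp. In this set Runx1 and Prr5l were at their full width by 2 h, and Nanos3 gained most of its width later. The remaining regions of highest ratio were near Sphk1 (sphingosine kinase, 184, 1355 and 2089 bp), Zfp52 (151, 1461 and 1678 bp), Ier5 (216, 2413 and 2380 bp) and in an intron of Bahcc1 (155, 1511 and 1544 bp). At Sphk1, chr11:116383442-116385530, the 2 h interval did not overlap the vehicle interval at all.

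**Figure D3:**
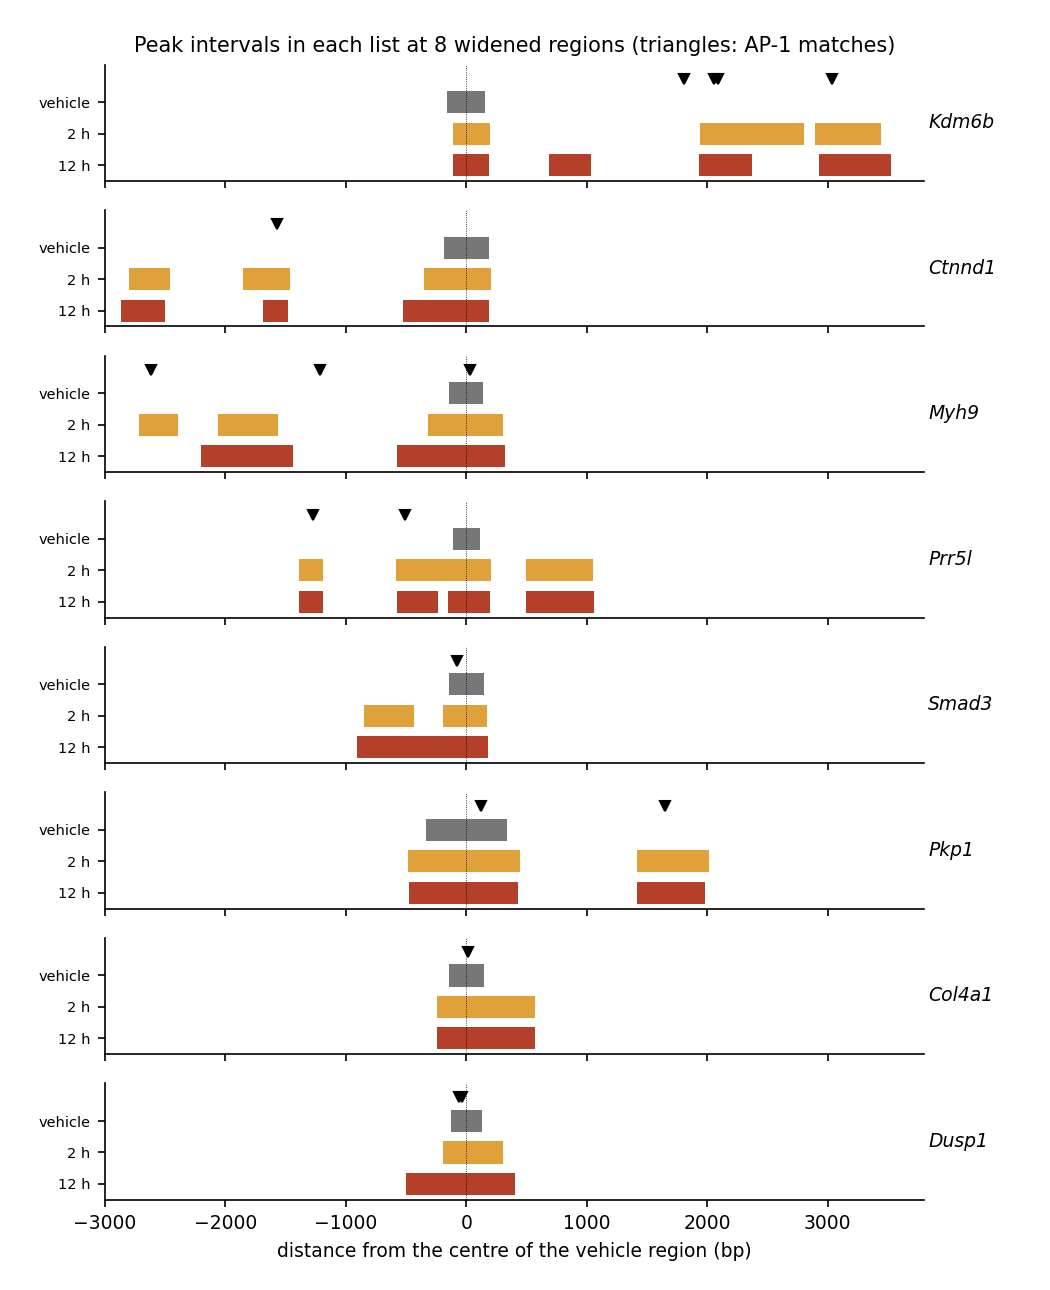
Peak intervals of the vehicle, TGFβ1 2 h and TGFβ1 12 h lists at 8 widened regions, by distance from the centre of the vehicle region (bp), with triangles at AP-1 matches inside the union region. At Kdm6b the 4 AP-1 matches lie 1802 to 3041 bp from the vehicle centre, whereas at Smad3, Col4a1 and Dusp1 the matches lie inside the vehicle peak.

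AP-1 matches sat near the centre of the vehicle peak more often in widened than in other shared distal regions. Sequence did not enter the selection. An exact match stood in the 500 bp around the vehicle centre in 812 of 1416 widened regions (57.3%, 54.8 to 59.9%), in 53.5% of steady regions and in 41.7% of narrowed regions. The difference was 3.80 percentage points from steady regions (0.767 to 6.79) and 15.7 points from narrowed regions (11.7 to 19.5). Windows of the same length 5000 bp to either side of the widened regions held a match in 8.05%. All distal union regions held one in 46.0%, but with the window at the centre of the union region. With that window 44.8% of widened regions held a match. The nearest match lay within 50 bp of the vehicle centre in 33.9% of widened (31.5 to 36.4%), 22.6% of steady (21.3 to 23.9%) and 14.4% of narrowed regions (12.5 to 16.6%). The widened regions were the narrowest in vehicle, and part of this order moved with width. Of all other shared distal regions 20.8% held a match within 50 bp, 13.1 points below the widened regions, and 26.8% did when weighted to the vehicle widths of the widened regions, 7.13 points below. By width the difference was 8.58 points at 150 to 288 bp (3.29 to 13.8) and 8.56 points at 289 to 398 bp (3.16 to 14.1), and in the 3 wider bins its intervals included 0.

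The direction of this difference depends on where the window stands. Centred on the vehicle region, it was 6.39 percentage points above all other shared distal regions. Centred on the widest 12 h region it was -6.58 points, and centred on the union region -4.8 points, with 44.8% of widened regions holding a match in either case. A widened region is by its selection one whose 12 h centre can lie far from the vehicle peak. AP-1 matches thus stood at the centre of the vehicle peak more often than at the centre of the wider 12 h region. In the Smad3 region, for example, the match began at -82 bp from the vehicle centre, and the 12 h interval ran from -911 to 179 bp.

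The difference remained with the other regions weighted to the vehicle widths of the widened regions, when 49.7% of the others held a match. By width, it was found in the narrow regions. At 150 to 288 bp, 51.3% of widened and 42.3% of other regions held a match, a difference of 9.06 points (3.57 to 14.5). At 289 to 398 bp the shares were 65.4 and 54.0%, a difference of 11.4 points (5.68 to 17.0). In the 3 wider bins the intervals of the difference included 0, with values of 2.17, -1.72 and 10.2 points.

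**Figure D4:**
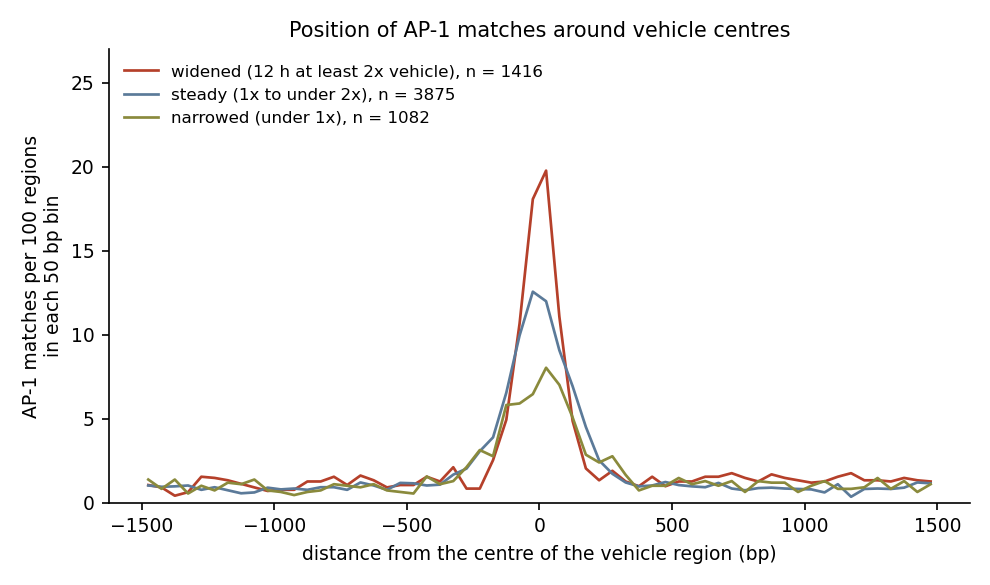
AP-1 matches per 100 regions in each 50 bp bin by distance from the centre of the vehicle region (bp), for widened, steady and narrowed shared distal regions. The widened regions, which were also the narrowest in vehicle, have the highest peak at the centre, with 33.9% of them holding a match within 50 bp.

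The sequence added at 12 h, merged gaps between intervals included, held fewer AP-1 matches per kb than the vehicle sequence, and more than the flanks. A match counted as added can thus lie in a gap outside every 12 h interval, as at Myh9. At 12 h 34.9% of widened regions were made of 2 or more intervals and in vehicle 2.05%, so gaps enter mostly the added sequence. Vehicle sequence of the widened regions held 2.14 matches per kb (2.01 to 2.27), added sequence 0.511 (0.467 to 0.557) and the flanking windows 0.168. In steady regions the densities were 1.49 in vehicle and 0.326 in added sequence. In narrowed regions they were 0.906 in vehicle and 0.615 in added sequence (0.390 to 0.922), the latter from only 37.4 kb. By vehicle width, widened and other shared distal regions held 2.72 and 2.14 matches per kb of vehicle sequence at 150 to 288 bp, 2.48 and 1.88 at 289 to 398 bp, 1.80 and 1.67 at 399 to 506 bp, 1.43 and 1.39 at 507 to 685 bp, and 1.37 and 0.927 at 686 bp or more. The gap was thus small between 399 and 685 bp. Vehicle sequence held a match in 806 widened regions (56.9%) and 2 or more in 229 (16.2%). Added sequence held a match in 410 (29.0%), in 174 of which (12.3% of all) the vehicle sequence held none, as at Ctnnd1 and Prr5l. No match was found in either in 436 regions (30.8%). Between 500 and 1000 bp from the vehicle centre, the widened regions had 0.263 matches per kb (Poisson SE 0.0136) and the steady regions 0.185 (SE 0.00691), which includes the separate intervals of the second form.

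Of the other motifs, most were found at like shares in widened and steady regions. The motifs were searched as exact letters on both strands in the 500 bp at the vehicle centre. For all distal regions, here and below, the window stood at the centre of the union region, so those shares are not directly comparable. TEAD, read by the Hippo pathway factors (GGAATG), was found in 32.3% of widened and 33.0% of steady regions, a difference of -0.636 points (-3.45 to 2.24), with 24.8% in the flanks and 32.0% in all distal regions. RUNX (TGTGGTT) was found in 17.7 and 18.8%, with 13.1% in the flanks and 18.1% in all distal regions, and ETS (CCGGAAG) in 4.45 and 4.41%, with 1.99 and 2.81%. The E-box of the ZEB and SNAI repressors (CAGGTG) stood in 30% of widened and 30.5% of steady regions, 30.1% of the flanks and 30% of all distal regions. Weighted by vehicle width, 31.9% of the other shared distal regions held the TEAD match. The intervals of the TEAD, RUNX, ETS and E-box differences all included 0.

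The FOX match and the shared match of KLF and SP factors were less frequent in widened regions. The site of forkhead factors (TGTTTAC) was found in 10.3% of widened and 12.7% of steady regions, a difference of -2.41 points (-4.25 to -0.439), with 6.43% in the flanks and 10.6% in all distal regions. The KLF and SP match (GGGCGGG) was found in 8.33 and 11.5%, a difference of -3.15 points (-4.84 to -1.32), with 3.46% in the flanks and 6.06% in all distal regions. Weighted by vehicle width, 8.49% of the other regions held the KLF and SP match, which leaves little of that difference. The GC content of the 500 bp had medians of 47.8% in widened, 48.4% in steady and 48.8% in narrowed regions.

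CTCF, the insulator protein whose motif was searched by its published consensus, was found in 3.88% of widened and 3.93% of other shared distal regions, with 0.376% in the flanks and 5.04% in all distal regions. These equal shares hid a difference among the narrowest regions. At 150 to 288 bp in vehicle, 7.07% of widened and 12.8% of other regions held a CTCF match, a difference of -5.70 points (-8.96 to -2.42). At 289 to 398 bp it was 0.969 and 5.50%, a difference of -4.53 points (-6.35 to -2.53). With vehicle width weighted, 7.57% of the other regions held a match. Small shared distal regions with a CTCF match were thus less often among the widened.

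The palindromic SMAD site (GTCTAGAC) was rare, in 8 widened regions (0.565%, 0.287 to 1.11%), 0.748% of steady regions, 0.263% of the flanks and 1.00% of all distal regions. Vehicle sequence held 6 matches (0.0120 per kb, 0.00442 to 0.0262) and added sequence 21 (0.0210 per kb, 0.0130 to 0.0321). Unlike AP-1, it was thus not seen to be denser in vehicle than in added sequence. The GC-rich SMAD element (GGCGCC) was found in 6.00% of widened and 5.83% of steady regions, with 2.07% in the flanks and 3.79% in all distal regions. The CRE (TGACGTCA) was found in 0.777% of widened regions, the GRHL site (AACCGGTT) in 0.141% and the CEBP site (TTGCGCAA) in 0.0706%. These shares are too small to compare, with 11, 2 and 1 regions.

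**Figure D5:**
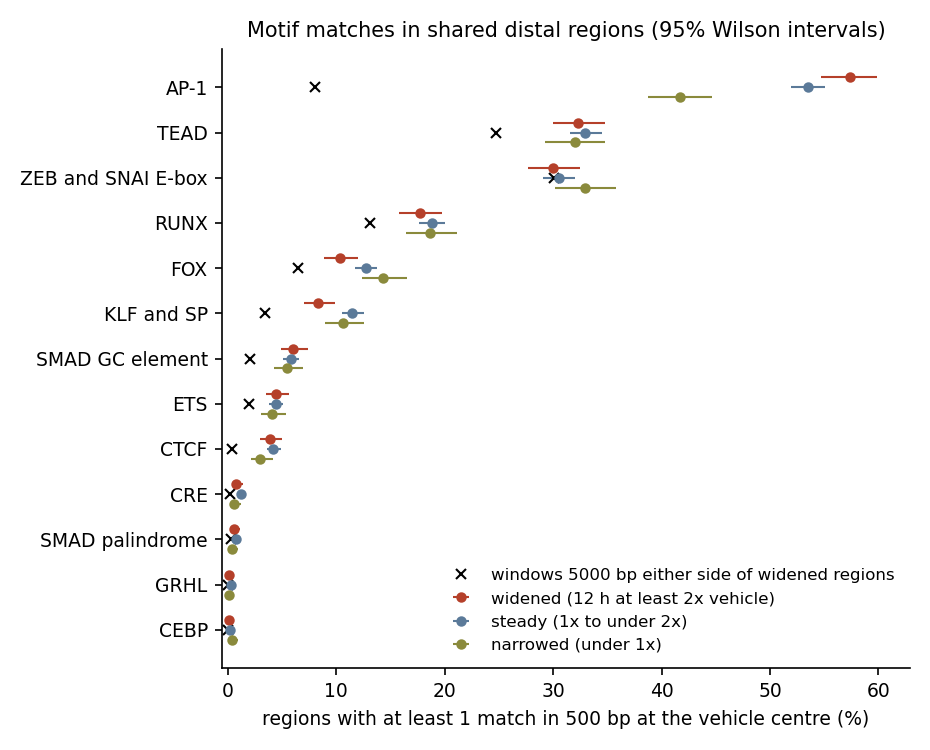
Share of widened, steady and narrowed shared distal regions with at least 1 exact match to each of 13 motifs in 500 bp at the vehicle centre (%, with 95% Wilson intervals), and, as crosses, the share of windows 5000 bp to either side of the widened regions. AP-1 is the most frequent, at 57.3% of widened regions, and FOX and KLF and SP lie lower in widened than in steady regions.

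In position the widened regions were close to the steady ones. Between genes lay 54.0% of them (51.4 to 56.5%) and in introns 39.0% (36.5 to 41.5%), against 55.5 and 38.7% of steady regions. The median distance to the nearest protein-coding 5′ end was 24002 bp, and 22871 bp for steady regions. A union region listed at both TGFβ1 times but not in vehicle (a gained region) lay within 20 kb of 39.7% of widened regions (37.2 to 42.3%), 39.2% of steady and 37.7% of narrowed regions. The differences were 0.489 points (-2.46 to 3.48) and 1.98 points (-1.88 to 5.81). Another widened region lay within 20 kb of 8.05% of widened and of 8% of steady regions, so the widened regions were not seen to cluster. By chromosome, the share of shared distal regions that were widened ran from 15.2% on chromosome 15 to 25.9% on chromosome 18.

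The widened regions had 1233 different nearest protein-coding genes, of which 1082 had only 1 widened region. Pde4d, which encodes a phosphodiesterase that degrades cyclic AMP, had the most. Of its 9 shared distal regions 5 were widened, all in introns, with 166 to 362 bp in vehicle, 262 to 1076 bp at 2 h and 384 to 1054 bp at 12 h. Col4a1, the gene of a collagen chain of the basement membrane, had 4 of 4, and all 4 held an AP-1 match in vehicle sequence. Cited2, a coregulator that binds CBP and p300, had 4 of 5, Fndc3b 4 of 6, Tgif1 4 of 6 and Camk1g, which is among 21 genes with 3 widened regions, 3 of 7. The Cited2 regions lay 137838 bp or more from its 5′ end. Genes with many shared distal regions have more chances to appear here.

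Around genes of the TGFβ pathway and its responses, widened regions were counted within 100 kb of the 5′ end. A widened region lay there at 3168 of 22350 protein-coding genes (14.2%), and at 46 of 144 genes of 13 lists (31.9%). Listed genes also had more shared distal regions around them: 103 of 144 had any, against 9659 of 22350. Counted by region, 59 of 217 shared distal regions around listed genes were widened (27.2%, 21.7 to 33.5%), against 22.2% of all. The lists were written with earlier results of these data known, and many hold fewer than 20 regions, so their shares are wide. By region, the interval lay above 22.2% for the Smads and feedback inhibitors and below it for the mammary epithelial regulators. For every other list the interval of the share by region included 22.2%.

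The ligands and receptors had a widened region at 4 of 10 genes. The one nearest to Tgfb1, the ligand gene itself, was chr7:26494980-26497300, 22959 bp from its 5′ end and over an untranslated exon of Ccdc97, with 505 bp in vehicle, 1124 bp after 2 h and 2293 bp after 12 h. It lay 76424 bp from Axl, a receptor tyrosine kinase gene among the YAP and TEAD targets. The region near Acvr1, a type I receptor gene, was in its intron at chr2:58400989-58401735, with 169, 741 and 711 bp. The region nearest to Bmpr1a, a type I receptor gene for BMP ligands, was in an intron of Ldb3 at chr14:35361588-35362877, with 419, 730 and 1284 bp. Tgfb1 and Bmpr1a thus gained more between 2 and 12 h than before 2 h, whereas the Acvr1 region was complete at 2 h.

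The Smads and feedback inhibitors, the genes that carry the signal and those that damp it, had the highest share of genes with a widened region of any list, 8 of 13 (61.5%). Counted by region, 12 of 28 shared distal regions around them were widened (42.9%, 26.5 to 60.9%), with a median ratio of 1.82 against 1.34 over all shared distal regions. Smad7, which encodes the inhibitory SMAD that blocks receptor signalling, had chr18:75458028-75460072, 67111 bp away, with 362 bp in vehicle, 1403 bp after 2 h and 2040 bp after 12 h. Smad3, the receptor-activated SMAD gene, had chr9:63525229-63526318 with 289, 1024 and 1090 bp. Tgif1, a corepressor gene, had chr17:71146288-71147412, in an intron of Dlgap1, with 313, 883 and 1103 bp. All of these were over 2 times the vehicle width by 2 h. The other genes of this list with a widened region were Smad4, Smad6, Ski, Skil and Pmepa1.

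Of the EMT transcription factors, 3 of 10 had a widened region: Snai1, Hmga2 and Ets1. They made up 3 of the 7 shared distal regions around the genes of that list. The region nearest to Snai1, a repressor of E-cadherin, was chr2:167400183-167402087 with 485, 1647 and 1845 bp. It lay 36488 bp from Snai1, nearer to Ube2v1. The Hmga2 region went from 592 to 1250 and 1252 bp and the Ets1 region from 363 to 915 and 979 bp. Of the AP-1 and related factors, 4 of 10 had a widened region. The region nearest to Jun went from 380 to 1715 and 1739 bp and that nearest to Fosl1 from 288 to 772 and 899 bp. They lay 46519 bp from Jun, nearer to Mysm1, and 81477 bp from Fosl1, nearer to Snx32. The region nearest to Jund, 66731 bp away over a coding exon of Gdf15, changed little by 2 h, with 628, 744 and 1473 bp.

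Epithelial adhesion and junction genes had a widened region at 4 of 13. Pkp1, which encodes the desmosomal protein plakophilin, had chr1:137758438-137760933 with 673, 2496 and 2459 bp. The region between genes near Grhl2, an epithelial transcription factor gene, went from 285 to 991 and 1099 bp. That nearest to Cldn7, a claudin gene, went from 618 to 979 and 1284 bp and lay 55838 bp away, in an intron of Dlg4. The 13 mammary epithelial regulators, of which 12 were in the annotation, had none, and 0 of their 18 shared distal regions were widened (upper bound of the 95% interval 17.6%).

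Matrix and mesenchymal genes had a widened region at 3 of 12. The region in Col4a2, which lies about as far from the 5′ end of Col4a1, went from 286 to 816 and 811 bp. That nearest to Lamb3, a laminin chain gene, went from 342 to 2163 and 2342 bp and lay 96653 bp away, nearer to Camk1g. Integrin genes had a widened region at 6 of 10. Counted by region, 7 of 22 shared distal regions around them were widened (31.8%, 16.4 to 52.7%). Itgb6, whose product activates latent TGFβ, had an intronic region with 352, 868 and 1130 bp, and Itga6 one with 375, 716 and 1037 bp. The Itgb1 region lay between genes and had 512, 573 and 1043 bp. At Itgb1 nearly all of the widening was absent at 2 h. The actin cytoskeleton list had 1 of 13, Vcl, the gene of vinculin of focal adhesions, with 260, 654 and 559 bp.

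The YAP and TEAD targets had a widened region at 4 of 9 annotated genes. Tead1, the gene of a TEAD factor itself, had 292, 636 and 841 bp, and Amotl2, of an angiomotin that binds YAP, 422, 770 and 847 bp. The MAPK feedback genes had a widened region at 5 of 11. The regions near the phosphatase genes Dusp1 and Dusp6 went from 259 to 500 and 908 bp and from 438 to 930 and 919 bp, and the one in Spred2, a Ras pathway inhibitor gene, from 346 to 740 and 725 bp. Dusp1 widened further after 2 h and the other two did not.

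The cell cycle arrest list had 2 of 10 and the proteases and inhibitors 2 of 11. The region nearest to Id1, an inhibitor of helix-loop-helix factors, went from 479 to 1586 and 1560 bp. It lay 68629 bp from Id1, in an intron of Bcl2l1. That nearest to Gadd45b, a stress response gene, went from 237 to 581 and 581 bp and lay 57706 bp away, in an intron of Gng7. The region nearest to Plaur, the urokinase receptor gene, went from 224 to 1188 and 1163 bp. It lay 96454 bp from Plaur, nearer to Kcnn4.

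As a check of the labelled cell type, the 5′ ends of 2 of 6 epithelial marker genes (Krt8 and Krt18) lay within 1000 bp of a vehicle region and those of 4 of 6, with Cdh1 and Cldn4, in both TGFβ1 lists. Epcam and Cldn7 were in no list. Of 5 mesenchymal genes, Vim, Zeb1 and Cdh2 were in all lists, and of 3 blood genes none was in any.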

How the data were processed

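ATAC-seq libraries of NMuMG cells were made in 2 biological replicates of 3 conditions. Per the study's methods, the authors trimmed the reads, aligned them to mm9 with the ENCODE ATAC-seq pipeline, called peaks with MACS2 (version 2.1.2 in the submitters' processing notes) and kept peaks reproducible between replicates by IDR. They deposited 1 BED list per condition made from both replicates. The deposited values used here were the start and end of each peak in bp and, for vehicle, a score of unstated scale. The fifth column of the TGFβ1 lists, as deposited, counts lines and was not used. Repeated intervals were taken once. The merge distance, minimum width and distance from 5′ ends given in the report were applied with Python 3.11.15, pandas 2.3.3 and the GENCODE vM1 annotation, and sequence was read from NCBIM37 with pysam 0.24.0. A width is the summed length of a list's merged regions in a union region, gaps included. Added sequence is the part of the 12 h regions outside the vehicle regions, with gaps included too. Shares have 95% Wilson intervals, differences of shares Newcombe intervals, medians order-statistic intervals and densities Poisson intervals. The lists hold no read counts. The study's reporting summary states more filtered reads for each vehicle library than for each 12 h library. No test was run, because 1 pooled list per condition leaves no replicate spread. Interval, distance and motif steps were tested on simulated data. The members, gene lists and motifs were chosen with earlier results of these data known.

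Named regions were the 6 with the most bp added, the 6 with the highest ratio, the 3 on either side of the threshold and, per gene list, up to 3 of the regions nearest to its genes, those with the most bp added. Named genes were also 6 nearest to the most widened regions, the last of them the first by name of 21 tied genes. Other listed genes named beside a count were named after their values were seen. Of 146 listed genes 144 were in the annotation. Some items are not reported here.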

Additional observations from a re-analysis of the deposited data

How the results depend on the processing

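No paired analysis was possible because each condition has 1 list made from both replicates, and for the same reason no replicate could be left out. The lists hold no read counts, so a region missing from the vehicle list, or narrow in it, cannot be called closed. Of 178 values under other settings, 112 stayed within the interval of the main value (or, for counts, within 1.5 times it), 64 moved and 2 reversed, both of them the AP-1 difference given with its window centre in the report (-6.58 points at the 12 h centre and -4.8 points at the union centre, with 44.8% of widened regions holding a match). Weighting by vehicle width, added after seeing the data, took the difference in matches within 50 bp of the vehicle centre from 13.1 to 7.13 points. Under the other settings tried the AP-1 difference stayed above 0. The cause of the other moves was not tested, beyond the selection each setting makes.

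With a ratio of at least 1.5 there were 2596 widened regions, of which 44.6% were also widened at 2 h, with median widths of 352, 694 and 777.5 bp (in the order vehicle, 2 h, 12 h), 21.6% made of 2 or more intervals at 12 h, 86.7% with bp added on both sides, 1.99 AP-1 matches per kb of vehicle sequence and an AP-1 difference of 9.96 points. With a ratio of at least 3 there were 531, with 82.3% widened at 2 h, medians of 290, 994 and 1278 bp, 60.1% of 2 or more intervals and 0.598 AP-1 matches per kb of added sequence. With intervals of at least 300 bp there were 736, with 61.5% (13.9% of all shared distal regions) widened at 2 h, medians of 401.5, 881 and 1100.5 bp, 41.0% of 2 or more intervals, 1.94 AP-1 matches per kb of vehicle sequence and 62.2% with a central match. With vehicle regions of at least 300 bp there were 770, with 65.7% (14.7% of all) widened at 2 h, medians of 408, 941 and 1146.5 bp, 48.4% of 2 or more intervals, 85.7% with bp added on both sides, 1.91 AP-1 matches per kb of vehicle sequence, 61.8% with a central match and a difference of 9.38 points.

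Merging gaps under 500 bp gave 18.3% of shared distal regions widened at 2 h, medians of 300.5, 729.5 and 840 bp, 25% of 2 or more intervals and 90.7% with bp on both sides. Merging gaps under 2000 bp gave 25.2% (72.2% of widened regions) at 2 h, medians of 327, 867 and 1037.5 bp and 45.1%. Without the merged gaps in the widths the values were 18.6% (66.2%) at 2 h, medians of 300, 730.5 and 831 bp, 27.7% of 2 or more intervals and 91.8% on both sides. A window of 100 bp to either side of the vehicle centre held an AP-1 match in 47.8% of widened regions, with a difference of 14.0 points, and one of 500 bp in 63.3%. A gained region lay within 10 kb of 22.9% and within 50 kb of 66.0% of widened regions, and 26 listed genes had a widened region within 50 kb, against 46 within 100 kb.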
